A study of Dendrobium officinale with 6 samples.

Results

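The enzymes that build and break down starch were examined in *Dendrobium officinale*, a medicinal orchid, by comparing protocorm-like bodies (PLBs) with leaves. The set held the unigenes (assembled transcript sequences) whose first listed KEGG ortholog (an identifier for a protein family) was K00975 for ADP-glucose pyrophosphorylase (AGPase), K00703 for starch synthase (SS), K13679 for granule-bound starch synthase (GBSS), K00700 for branching enzyme (BE), K01214 for isoamylase (ISA), K01177 for beta-amylase (BAM), K00688 for alpha-glucan phosphorylase (PHS), K08244 for glucan, water dikinase (GWD) or K00705 for disproportionating enzyme (DPE). The rule took 9 of 4137 orthologs and 319 of 157901 unigenes, of which 71648 had any ortholog. There were 3 libraries of PLBs and 3 of leaves, each of poly(A)-selected RNA and described by the study as biological replicates. By the sample labels, the PLBs were raised from seeds for 60 d on 1/2 MS medium with NAA at 0.5 mg/L, 6-BA at 1.0 mg/L, 2,4-D at 1.5 to 2.0 mg/L and potato juice at 100 g/L, under 1600 lx for 16 h a day at a relative humidity of 70%. The study's methods instead describe induction on a simpler medium followed by propagation of cut pieces, so the step at which the sequenced PLBs were sampled is uncertain. The leaves were taken from the source plants, which were grown in a greenhouse. No transgene or mutation is named for either group, and tissue, genotype, age, growth regulators and growing conditions cannot be told apart between the 2 groups.

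In plants, AGPase makes ADP-glucose, the glucosyl donor for starch. Soluble starch synthases and GBSS lengthen glucan chains (GBSS making amylose), branching enzymes add side chains, and isoamylases trim them so that the polymer can pack into a granule. Breakdown in chloroplasts, known best from Arabidopsis, starts with phosphorylation of the granule surface by GWD, after which beta-amylases release maltose, ISA3 removes branches, DPE1 recycles short glucans and the cytosolic enzymes DPE2 and PHS-H use the exported sugars. Leaves make starch by day and consume it at night, whereas non-green plastids can store it for longer.

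Each library held 17697113 to 18219217 expected counts in PLBs and 17602153 to 18408442 in leaves. The starch members took 0.414%, 0.365% and 0.314% of them in PLB replicates 1, 2 and 3, against 0.349%, 0.349% and 0.344% in leaves. The tissue labels were checked on marker orthologs: the 11 of 12 light-harvesting and Rubisco small subunit orthologs that had unigenes were all lower in PLBs and summed to 794.5 to 2042 FPKM there, against 18000 to 21240 FPKM in leaves, and none was at 0 in PLBs. All 7 replication orthologs (MCM proteins and PCNA) were higher, summing to 152.7 to 177.4 FPKM in PLBs and 53.44 to 54.49 FPKM in leaves. PLB replicate 3 had the lowest sum of leaf markers, 794.5 FPKM, and also the lowest AGPase and branching enzyme levels, and the part of this library's make-up in those values was not tested. In bulk tissue, fewer cells of a type and less RNA per cell cannot be told apart. Most of the transcriptome differed between the tissues, since 75.8% of 4103 orthologs tested passed an adjusted p of 0.05 in edgeR, 37.2% higher and 38.6% lower in PLBs.

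Across the 9 enzymes, 4 were higher in PLBs (GBSS, isoamylase, beta-amylase and DPE), 3 were lower (AGPase, soluble starch synthase and phosphorylase) and 2 were not called (branching enzyme and GWD), so that 7 of 9 were called where 75.8% of all orthologs were. The median log2 fold change of PLBs over leaves was 0.11 over the 9, beside 0.01 over all orthologs, and the median size of change was 0.58 beside 0.61. The level of each enzyme was taken as its summed FPKM (fragments scaled by transcript length and library total), which accounts for length, while folds and tests came from expected counts scaled by TMM. The choice of scaling shifted all folds together: the median of all orthologs was 0.26 with library size alone, 0.19 on log2(FPKM + 1) and 0.385 on log2(TPM + 1), and the share of ortholog calls that were higher in PLBs was 49.1% with TMM, against 62.8% with library size alone. The 9 enzymes together summed to 1501.9, 1348.0 and 1127.4 FPKM in PLBs, against 1314.0, 1315.6 and 1296.0 FPKM in leaves. On FPKM, the range in PLBs contained the whole range in leaves. The FPKM of all unigenes summed to 591548 to 617385 in PLBs and 687444 to 695069 in leaves, so the totals were unequal. The summed TPM of the 9 enzymes was not computed. How often the 2 tissues did not overlap was not counted over all orthologs, so lack of overlap is given below as a description.

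**Figure D1:**
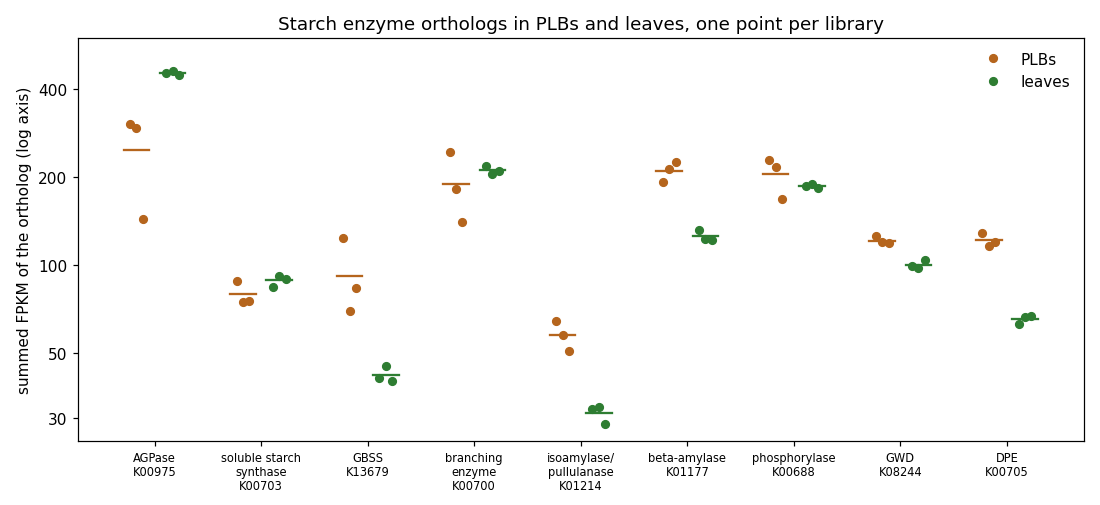
Summed FPKM (log axis) of the 9 starch enzyme orthologs, with PLBs to the left of leaves, 1 point per library and a line at each tissue mean. AGPase stood at 143.69 to 305.59 FPKM in the PLB libraries, under all 3 leaf libraries at 448.44 to 461.05, while the GBSS, isoamylase, beta-amylase and DPE points in PLBs all lay above those in leaves.

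AGPase was the most abundant starch enzyme in leaves and was lower in PLBs, and its 2 large subunit genes went in opposite directions. The ortholog summed to 305.59, 295.61 and 143.69 FPKM in PLBs and to 456.26, 461.05 and 448.44 FPKM in leaves. The groups did not overlap, and the log2 fold change was -1.13 (SE 0.245, edgeR quasi-likelihood test, Benjamini-Hochberg adjusted p = 0.00335). Without PLB replicate 3 it was -0.86, and on log2(TPM + 1) it was -0.75. Of the 18 unigenes, 9 named AGPase, and the others (mostly APO protein 1) took 3.25% to 6.13% of the counts in PLBs and 4.09% to 4.56% in leaves. AGPase is a tetramer of small, catalytic subunits and large subunits that tune its regulation. The small subunit, a single contig, stood at 132.93, 139.79 and 66.30 FPKM in PLBs and 175.56, 182.40 and 174.03 FPKM in leaves, and it fell by 0.89 on the log2 scale (adjusted p = 0.0102 in edgeR, SE 0.242).

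Contigs were also summed by the *Dendrobium catenatum* or *Phalaenopsis* locus that their nucleotide database hit named, and the locus is given below as that database writes it. The large subunit 3-like locus LOC110105206 measured 73.19, 62.73 and 32.12 FPKM in PLBs, against 242.06, 238.45 and 231.15 FPKM in leaves. It fell by 2.24 on the log2 scale (adjusted p = 4.55e-05 in edgeR, SE 0.223). The large subunit 1-like locus LOC110112231 measured 85.45, 79.05 and 32.17 FPKM in PLBs, against 16.76, 16.77 and 19.28 FPKM in leaves, a log2 fold change of 1.90 (adjusted p = 0.000897, SE 0.324). In PLBs both loci stood at about the same level, whereas in leaves the large subunit 3-like locus was far above the other in every library. As shares of the summed AGPase FPKM, the large subunit 3-like locus made up 22.5% ± 1.37 in PLBs and 52.1% ± 0.825 in leaves, and the large subunit 1-like locus 25.7% ± 2.93 in PLBs and 3.87% ± 0.372 in leaves (SD, n = 3 each). In all, 99 such shares were compared between the tissues with a two-sided exact permutation test, which with 6 libraries cannot give a p under 0.1. Of these, 83 reached 0.1, with a smallest adjusted value of 0.119, so no share passed, and the shares are given here as descriptions.

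Among the chain-lengthening enzymes, starch synthase 1 was lower in PLBs and starch synthases 3 and 4 and GBSS were higher. SS1, which in Arabidopsis extends short outer chains, measured 12.92, 11.18 and 9.35 FPKM in PLBs, against 30.27, 34.09 and 34.25 FPKM in leaves, and fell by 1.59 on the log2 scale (adjusted p = 9.36e-06 in edgeR, SE 0.117). SS3, which makes longer chains, measured 29.99, 24.91 and 25.38 FPKM in PLBs and 17.56, 18.88 and 18.72 FPKM in leaves (log2 fold change 0.54, SE 0.0893, adjusted p = 0.000764). SS4, known in Arabidopsis for starting new granules, measured 16.51, 14.88 and 15.90 FPKM in PLBs and 8.90, 8.85 and 8.46 FPKM in leaves (log2 fold change 0.65, SE 0.0817, adjusted p = 0.000161). For these 3 classes every PLB library lay on the same side of every leaf library. SS2 overlapped, at 29.19, 23.76 and 24.65 FPKM in PLBs and 27.66, 30.37 and 28.52 FPKM in leaves, with a log2 fold change of -0.42 (adjusted p = 0.00487 in edgeR) that was -0.17 and not called with library size alone. The class pooled locus LOC110114545, annotated as starch synthase 2-like, with LOC110108623, annotated as granule-bound starch synthase 2-like. LOC110114545 measured 18.88, 15.47 and 15.29 FPKM in PLBs and 19.65, 21.52 and 20.92 FPKM in leaves (log2 fold change -0.61, SE 0.103, adjusted p = 0.000902 in edgeR). Under other settings it was -0.60 to -0.31. LOC110108623 was not called (log2 fold change -0.08, adjusted p = 0.537 in edgeR). The soluble starch synthase sum over all 4 classes was 88.61, 74.73 and 75.28 FPKM in PLBs and 84.39, 92.19 and 89.95 FPKM in leaves. Its call (log2 fold change -0.25, SE 0.0892, adjusted p = 0.0318 in edgeR) was lost when any library other than PLB replicate 1 was left out, the 6 omissions giving -0.33 to -0.20, and the sign turned on log2(TPM + 1), at 0.04, and when every listed ortholog was used, at 0.05. SS1 was 13.99% ± 1.37 of the starch synthase FPKM in PLBs and 37.0% ± 1.10 in leaves, while SS3 was 33.6% ± 0.266 in PLBs and 20.7% ± 0.191 in leaves.

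GBSS, the amylose-making enzyme held inside the granule, was higher in PLBs. Its 6 contigs, all of 1 locus annotated as GBSS1b, summed to 123.52, 69.90 and 83.43 FPKM in PLBs and to 41.25, 45.41 and 40.05 FPKM in leaves. The lowest PLB library was above the highest leaf library, and the log2 fold change was 0.87 (adjusted p = 0.00408 in edgeR, SE 0.195).

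The branching enzyme sum did not pass the test, while 1 of its loci was lower in PLBs and another higher. It was 244.35, 182.76 and 141.08 FPKM in PLBs and 218.73, 205.97 and 210.77 FPKM in leaves (log2 fold change -0.27, SE 0.174, adjusted p = 0.188 in edgeR), and without PLB replicate 1 it was -0.48 and called. Locus LOC110114933, annotated as a branching enzyme without an isoform number, measured 79.08, 53.11 and 42.84 FPKM in PLBs and 122.20, 113.01 and 113.96 FPKM in leaves. It fell by 1.04 on the log2 scale (adjusted p = 0.00171, SE 0.198), and its share of the branching enzyme FPKM was 30.6% ± 1.66 in PLBs and 54.9% ± 0.902 in leaves. BE3 measured 44.84, 39.05 and 46.37 FPKM in PLBs and 20.17, 19.71 and 19.33 FPKM in leaves, and rose by 0.84 (adjusted p = 6.31e-05, SE 0.0886). The BE1-like locus LOC110028889 spanned 51.87 to 120.43 FPKM in PLBs and 73.25 to 76.36 FPKM in leaves, so its PLB libraries lay on both sides of the leaf libraries (log2 fold change -0.04, or 0.21 with library size alone). The protein database class BE1, which mixes contigs of both loci, had a log2 fold change of -0.60 (adjusted p = 0.0617) and was not called, but was in DESeq2 (-0.58, adjusted p = 0.0199), without PLB replicate 1 (-0.88, adjusted p = 0.00878) and without PLB replicate 3 (-0.33, adjusted p = 0.0451). The class with no isoform given, at -0.33, was called without PLB replicate 1, at -0.61, and was -0.15 without PLB replicate 3. The lone BE2 contig was too low to test.

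Of the debranching enzymes, ISA3 alone was called with TMM scaling. ISA3, which in Arabidopsis removes branches during breakdown, measured 39.50, 30.50 and 25.17 FPKM in PLBs and 8.58, 8.28 and 7.46 FPKM in leaves. All PLB values were above all leaf values, and the log2 fold change was 1.71 (adjusted p = 3.09e-05 in edgeR, SE 0.159). ISA1 and ISA2, the subunits of the complex that trims growing amylopectin, and pullulanase PU1 had log2 fold changes of 0.09, -0.18 and -0.05, with adjusted p of 0.499, 0.303 and 0.774, and the signs turned under other scalings or when 1 library was left out. With library size alone ISA1 was 0.34 and called (adjusted p = 0.034 in edgeR). The ISA1 class pooled LOC110113494, annotated as isoamylase 1, with LOC110113510, annotated as uncharacterized. Their log2 fold changes with TMM were 0.065 and 0.35, with adjusted p of 0.701 and 0.428 in edgeR. ISA3 took 54.5% ± 5.99 of the isoamylase FPKM in PLBs and 25.9% ± 0.717 in leaves. The ortholog summed to 64.65, 57.77 and 50.87 FPKM in PLBs, against 32.23, 32.87 and 28.72 FPKM in leaves (log2 fold change 0.65, SE 0.104, adjusted p = 0.000679), and it was 1.07 on log2(TPM + 1).

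**Figure D2:**
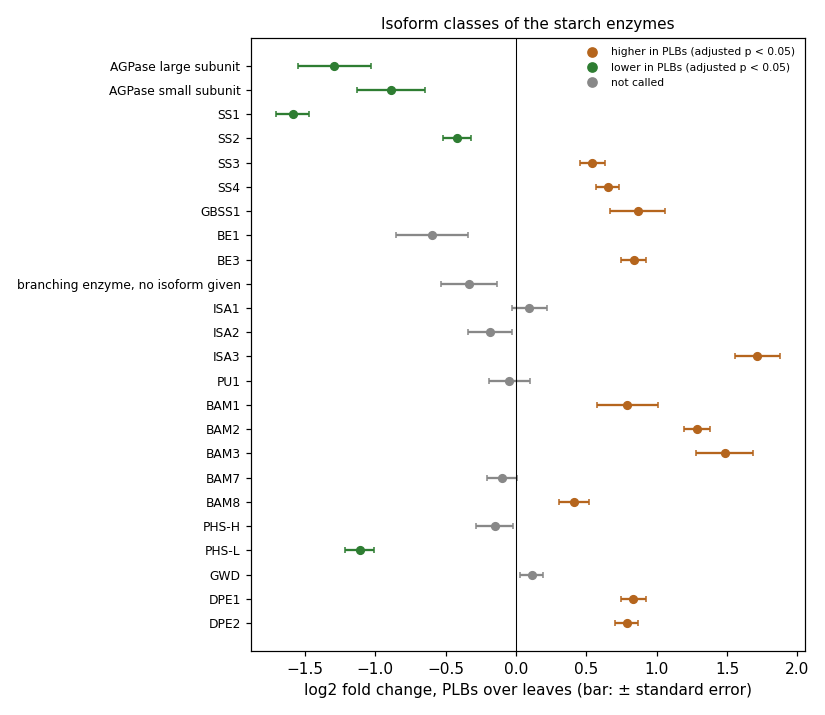
Log2 fold change of PLBs over leaves with its standard error (x axis) for 24 isoform classes (y axis). Classes were named from the protein database descriptions of each contig, or from its nucleotide database description where those gave no isoform. Of these, 11 were higher, 5 lower and 8 not called at an adjusted p of 0.05, and within starch synthase, branching enzyme, isoamylase, beta-amylase and phosphorylase some classes were called and others were not or went the other way.

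Across these classes 16 of 24 were called, where 75.7% of the features of that table were, and the median log2 fold change was 0.10. Summing by locus gave the same background of 75.7%, and members taken by description one of 75.8%.

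On the breakdown side, 5 of the 6 loci annotated as beta-amylases were higher in PLBs. In the table split by locus, 75.7% of all features were called in either direction. The largest beta-amylase folds were those of a BAM1 and a BAM3-like locus, both plastid enzymes in Arabidopsis. The BAM3-like locus LOC110109874 measured 49.29, 59.70 and 75.32 FPKM in PLBs and 20.12, 17.83 and 18.26 FPKM in leaves (log2 fold change 1.48, SE 0.201, adjusted p = 0.000249 in edgeR). Its share of K01177 depended on the measure. It averaged 29.0% of the FPKM but 14.1% of the counts in PLBs, and 14.9% and 7.58% in leaves. The BAM1 locus LOC110099000 measured 19.15, 37.25 and 17.85 FPKM in PLBs and 5.29, 4.63 and 4.04 FPKM in leaves (log2 fold change 2.13, SE 0.285, adjusted p = 0.000232), and PLB replicate 2 stood well above the other PLB libraries. Another BAM3-like locus, LOC110094412, ran the other way at 7.96, 9.83 and 9.38 FPKM in PLBs and 13.09, 11.11 and 12.86 FPKM in leaves (log2 fold change -0.59, SE 0.117, adjusted p = 0.00202), and with library size alone it was -0.35. The protein database class BAM1, which holds both contigs of that locus and 1 of LOC110099000, had a log2 fold change of 0.79, or 0.48 without PLB replicate 2.

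The other named beta-amylase loci rose by less. The BAM2-like locus LOC110103332 measured 31.34, 25.72 and 27.08 FPKM in PLBs and 16.66, 16.22 and 14.43 FPKM in leaves (log2 fold change 0.73, SE 0.107). The BAM7-like locus LOC110111892, whose Arabidopsis counterpart is a nuclear protein that binds DNA, measured 22.45, 26.27 and 31.38 FPKM in PLBs and 12.38, 12.78 and 11.83 FPKM in leaves (log2 fold change 0.83, SE 0.119). BAM8, of the same nuclear kind, measured 11.76, 12.06 and 9.28 FPKM in PLBs and 7.95, 7.76 and 8.18 FPKM in leaves (log2 fold change 0.42, SE 0.106, or 0.66 with library size alone). Their adjusted p were 0.000403, 0.000343 and 0.00739 in edgeR, and none of the 3 overlapped between tissues, a trait not counted over all features. By the protein database names, the class BAM2 had a log2 fold change of 1.28 and the class BAM7 one of -0.10, since contigs of the BAM7-like locus were split between them.

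The K01177 sum needs reading with care, because 50 of its 98 unigenes named other proteins, chiefly ketohexokinases, which took 28.3% to 38.6% of its counts in PLBs and 46.4% to 47.3% in leaves. Of its FPKM these other proteins took 20.2% to 26.1% in PLBs and 42.6% to 43.1% in leaves. The whole sum was 192.14, 214.18 and 225.16 FPKM in PLBs and 131.61, 122.94 and 122.23 FPKM in leaves (log2 fold change 0.58, SE 0.0802, adjusted p = 0.000287 in edgeR). The 48 contigs that named beta-amylase summed to 141.95, 170.83 and 170.29 FPKM in PLBs and 75.49, 70.33 and 69.60 FPKM in leaves, a log2 fold change of 0.88 (adjusted p = 4.9e-05, SE 0.0898). Within the remainder, ketohexokinase LOC110097351 fell by 1.93 on the log2 scale (SE 0.168) and ketohexokinase-like LOC110099006 rose by 1.47 (SE 0.129).

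GWD, which opens starch breakdown, was close to level as a sum. It measured 125.85, 119.86 and 118.85 FPKM in PLBs and 99.39, 97.98 and 104.35 FPKM in leaves. Although the PLB values all lay above the leaf values, the log2 fold change with TMM was 0.11 (adjusted p = 0.239 in edgeR, SE 0.0802). It was 0.36 with library size alone, 0.27 on log2(FPKM + 1) and 0.47 on log2(TPM + 1), and called in each of these.

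Of the phosphorylases, the plastid isozyme was lower in PLBs and the cytosolic isozyme was not called. PHS-L, the plastid isozyme, measured 37.74, 33.93 and 29.00 FPKM in PLBs and 54.46, 55.91 and 49.41 FPKM in leaves, and fell by 1.11 on the log2 scale (adjusted p = 2.93e-05 in edgeR, SE 0.102), or by 0.66 on log2(FPKM + 1). PHS-H, the cytosolic isozyme and the more abundant in both tissues, measured 170.20, 156.66 and 119.20 FPKM in PLBs and 123.23, 122.92 and 124.35 FPKM in leaves, with overlap and a log2 fold change of -0.15 (adjusted p = 0.323) that was 0.25 on log2(FPKM + 1). PHS-L was 16.5% ± 0.764 of the phosphorylase FPKM in PLBs and 28.4% ± 1.40 in leaves. The ortholog sum, 228.42, 216.65 and 168.75 FPKM in PLBs and 187.05, 190.47 and 184.25 FPKM in leaves, was lower with TMM (log2 fold change -0.36, SE 0.121, adjusted p = 0.0254) but higher on log2(FPKM + 1), at 0.12, and on log2(TPM + 1), at 0.32 and called there. The call was also lost without any 1 of the leaf libraries. The 9 unigenes of other proteins, all ACT domain proteins, took 4.69% to 6.62% of its counts in PLBs and 2.24% to 2.78% in leaves. Of its FPKM they took 8.97% to 12.18% in PLBs and 5.00% to 6.11% in leaves. The 17 unigenes that named phosphorylase gave a log2 fold change of -0.41.

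Both disproportionating enzymes were higher in PLBs. DPE1, which rearranges short glucans in the plastid, measured 52.60, 48.72 and 56.36 FPKM in PLBs and 22.25, 24.56 and 25.08 FPKM in leaves (log2 fold change 0.83, SE 0.0893, adjusted p = 6.75e-05 in edgeR). DPE2, which handles maltose in the cytosol, measured 76.20, 67.85 and 63.95 FPKM in PLBs and 40.79, 42.13 and 42.15 FPKM in leaves (log2 fold change 0.79, SE 0.0818, adjusted p = 5.75e-05). Together they gave 128.80, 116.57 and 120.31 FPKM in PLBs and 63.04, 66.69 and 67.23 FPKM in leaves, a log2 fold change of 0.80 (adjusted p = 2.67e-05, SE 0.0726), with no overlap.

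**Figure D3:**
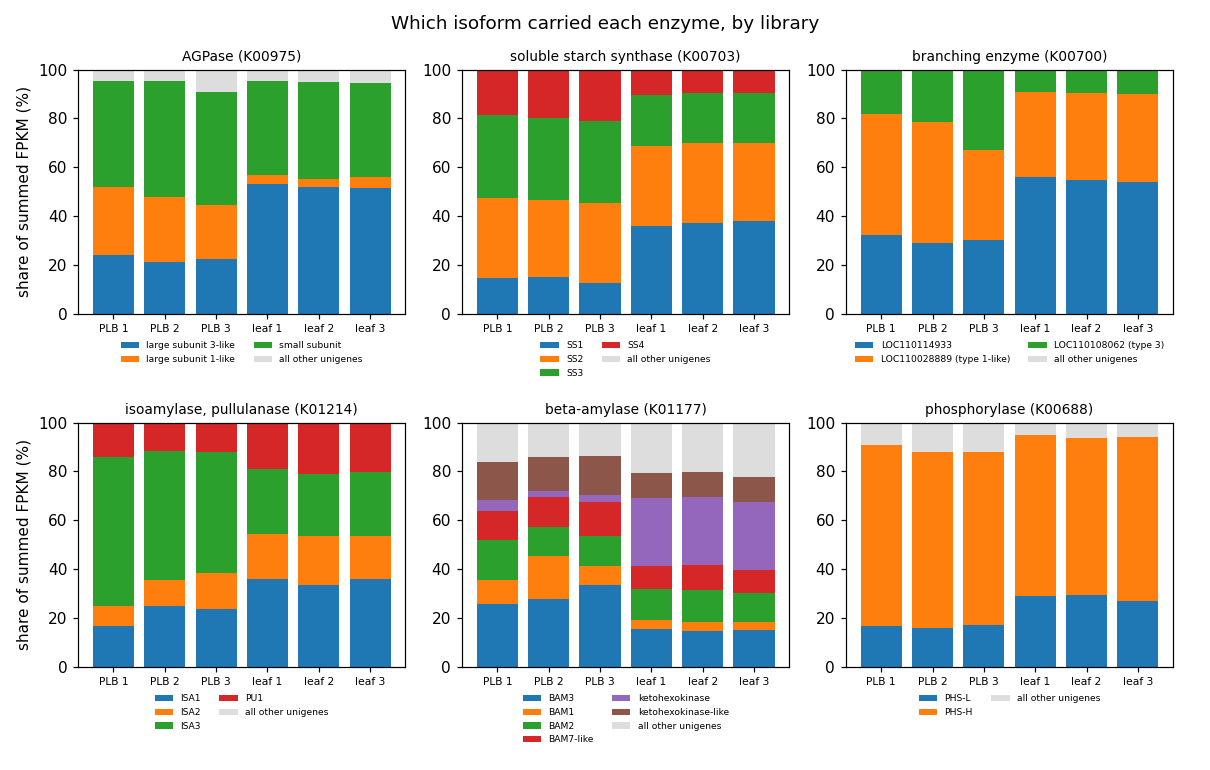
Share of each enzyme's summed FPKM (y axis, %) taken by its isoforms or loci in each library, with the 3 PLB libraries left of the 3 leaf libraries and the remaining unigenes in grey. The large subunit 3-like locus of AGPase averaged 22.5% in PLBs and 52.1% in leaves, SS1 13.99% and 37.0%, and ISA3 54.5% and 25.9%.

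Single contigs moved far more than the sums over an enzyme. Of the 319 unigenes, 226 passed the filter on low counts, and 53 of these were called higher and 54 lower under a rule of adjusted p up to 0.001 together with a change of 1 or more on the log2 scale, with 119 not called. That is 47.3% of those tested, where 39.7% of all 70383 unigenes tested were called, 16.8% higher and 22.9% lower, and the filter keeps a contig that is expressed in either tissue, so these counts describe the contigs tested only. Leaving out 1 library brought the members called to 18 to 28 higher and 25 to 38 lower, each of the 6 libraries cutting the first count by more than 1.5 times and each leaf library the second. The median log2 fold change of the members tested was 0.14 and its median size 2.61, beside 1.99 for the size over all unigenes. Of 39 loci, 16 held contigs called in both directions. For comparison, loci were also counted over all tested contigs that named them, not only the members. With at least 5 such contigs, 14 of 23 starch loci held both directions, where 49.5% of 4511 loci in the whole assembly did. Contigs of 1 locus share reads, which the authors' counting divided between them (59.1% to 64.9% of the values above 0 in a library were not whole), so the level of a single contig is uncertain and contigs are not independent measurements.

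GBSS gives an example. CL11457.Contig1 measured 38.44, 20.01 and 27.84 FPKM in PLBs and 36.70, 39.38 and 34.99 FPKM in leaves, and did not pass the rule for contigs. CL11457.Contig3 measured 42.07, 26.68 and 30.28 FPKM in PLBs and 1.84, 1.87 and 1.98 FPKM in leaves (log2 fold change 3.80, SE 0.201, adjusted p = 7.75e-06 in edgeR), and CL11457.Contig2 measured 40.99, 22.10 and 21.99 FPKM in PLBs and 2.26, 3.35 and 2.79 FPKM in leaves (log2 fold change 3.02, SE 0.295, adjusted p = 8.96e-05). Contig1 thus carried most of the leaf GBSS, 87.7% of its FPKM, and 31.0% of that in PLBs.

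Contigs of GWD also went both ways, and of the 18 tested 6 were higher and 4 lower. CL3752.Contig12 measured 15.59, 15.41 and 14.22 FPKM in PLBs and 46.84, 43.50 and 51.19 FPKM in leaves (log2 fold change -1.96, SE 0.133). CL3752.Contig16 fell by 2.61 on the log2 scale (SE 0.130), at 3.69 to 4.17 FPKM in PLBs and 18.51 to 21.03 FPKM in leaves. CL3752.Contig9 measured 26.28, 20.52 and 23.12 FPKM in PLBs and 0.59, 0.64 and 0.16 FPKM in leaves (log2 fold change 5.32, SE 0.435). All 3 passed at adjusted p of 1.91e-05, 6.66e-06 and 4.08e-05 in edgeR.

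In DPE2, CL2877.Contig10 measured 40.40, 37.22 and 30.63 FPKM in PLBs and 1.38, 1.25 and 0.61 FPKM in leaves (log2 fold change 4.75, SE 0.310), while CL2877.Contig12 stood at 12.50 to 14.24 FPKM in PLBs and 9.0 to 11.69 FPKM in leaves and was not called. In PHS-H, Unigene35518 measured 50.48, 44.30 and 30.62 FPKM in PLBs and 6.46, 7.75 and 7.02 FPKM in leaves (log2 fold change 2.25, SE 0.212). Unigene21054 of the same locus was at 0 in all PLB libraries and at 10.16, 10.65 and 10.17 FPKM in leaves, at least 998-fold lower in PLBs against a floor of 3 counts over the tissue. The main PHS-H contig, Unigene35516, measured 105.36, 100.84 and 79.55 FPKM in PLBs and 58.59, 55.42 and 60.90 FPKM in leaves without passing the rule for contigs.

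In branching enzyme LOC110114933, Unigene24625 was at 0, 0 and 0.09 FPKM in PLBs and at 39.75, 34.91 and 35.73 FPKM in leaves (adjusted p = 6.52e-06 in edgeR), while CL6813.Contig1 of that locus measured 78.80, 53.11 and 42.57 FPKM in PLBs and 61.02, 59.07 and 56.78 FPKM in leaves and was not called. The locus thus held a called contig absent or nearly so from PLBs beside its main PLB contig, which did not pass. In SS1, Unigene28422 was at 0 in PLBs and at 9.66, 10.84 and 12.54 FPKM in leaves, at least 961-fold lower, and Unigene28423 was at 7.94 to 11.17 FPKM in PLBs and 5.30 to 10.06 FPKM in leaves. For AGPase the leading contigs followed their loci: Unigene13101 of large subunit 3-like measured 65.00, 55.47 and 24.03 FPKM in PLBs and 219.01, 216.72 and 208.23 FPKM in leaves (log2 fold change -2.46, SE 0.349), and Unigene36268 of large subunit 1-like measured 84.22, 77.56 and 31.83 FPKM in PLBs and 11.89, 12.24 and 13.74 FPKM in leaves, with an adjusted p of 0.00126 just outside the rule.

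**Figure D4:**
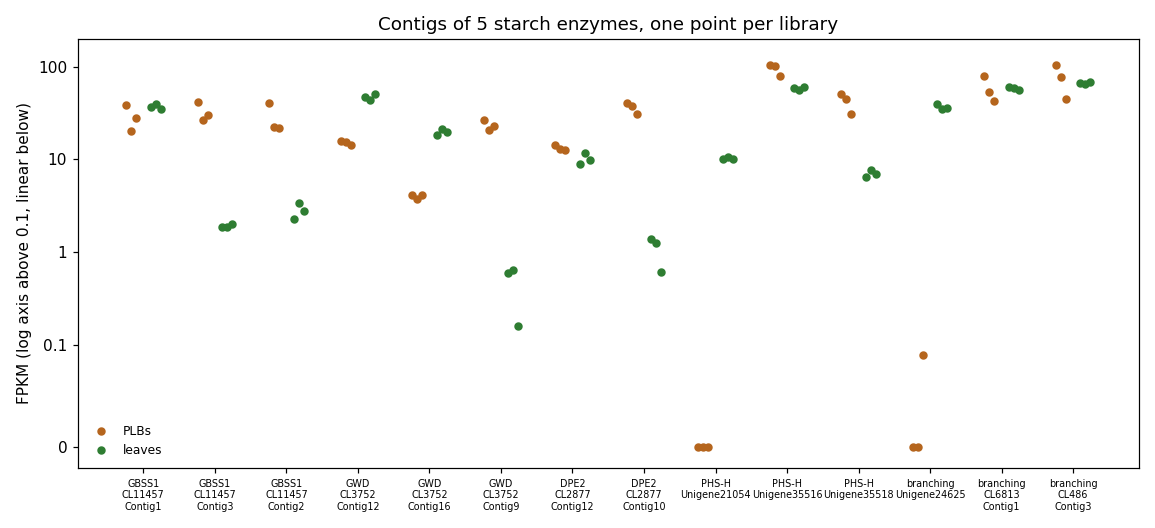
FPKM per library (y axis, logarithmic above 0.1 and linear below) of 14 contigs of GBSS1, GWD, DPE2, PHS-H and branching enzyme, PLBs left of leaves. Within GWD, CL3752.Contig12 was at 14.22 to 15.59 in PLBs and 43.50 to 51.19 in leaves, while CL3752.Contig9 was at 20.52 to 26.28 in PLBs and 0.16 to 0.64 in leaves.

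Some contigs were listed at 0 in every library of a tissue while averaging at least 1 FPKM in the other. There were 16 at 0 in PLBs, at least 14.6-fold to 998-fold lower there, and 16 at 0 in leaves, at least 23.5-fold to 262-fold higher in PLBs. The share of all unigenes that meet this rule was not computed, so the counts describe these members only. CL522.Contig12 and CL3752.Contig14 were also at or near 0 counts in a library of the other tissue. Higher in PLBs were CL522.Contig30 of SS3 (3.90, 4.94 and 6.18 FPKM in PLBs, at least 262-fold), CL1919.Contig3 (5.96, 5.45 and 5.83 FPKM in PLBs, at least 230-fold) and CL1919.Contig16 (at least 176-fold) of the BAM7-like locus, CL531.Contig6 of DPE1 (at least 110-fold) and CL660.Contig20 of a ketohexokinase-like locus (at least 107-fold). Lower in PLBs were CL1919.Contig5 of the BAM7-like locus (5.74 to 6.25 FPKM in leaves, at least 363-fold), Unigene40849 of branching enzyme (at least 233-fold) and CL522.Contig6 of SS3 (at least 206-fold). SS3 and the BAM7-like locus thus each held contigs seen in PLBs alone and contigs seen in leaves alone, within the counting limit above.

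Among other genes of starch metabolism, found by ortholog or by description, those for import of carbon and energy into plastids were higher in PLBs and those for phosphate removal and maltose export were mostly lower. By ortholog, 2 of the 9 tested were higher (K03301 for the ATP carrier and K00963), 2 lower (K01835 for phosphoglucomutase, at -0.51 or -0.26 with library size alone, and K00695) and 5 not called, beside 37.2% higher and 38.6% lower over all orthologs. By description, 5 of 11 were higher, 5 lower and 1 was not called, where 75.8% of 4114 features were called in either direction. The glucose-6-phosphate translocator GPT, which feeds starch synthesis in non-green plastids, measured 438.55, 365.90 and 306.52 FPKM in PLBs and 67.74, 59.97 and 70.07 FPKM in leaves (log2 fold change 2.37, SE 0.140, adjusted p = 2.91e-06 in edgeR). The plastid ATP carrier NTT measured 322.70, 370.37 and 298.79 FPKM in PLBs and 162.96, 152.94 and 163.04 FPKM in leaves (log2 fold change 0.76, SE 0.0922, adjusted p = 0.000129). Plastid phosphoglucomutase, which supplies AGPase, fell by 0.42 on the log2 scale (SE 0.0967), a call lost at -0.17 with library size alone, and the cytosolic form fell by 0.67 (SE 0.0819), or by 0.40 on log2(FPKM + 1). Sucrose synthase (K00695), which opens sucrose to UDP-glucose, measured 337.77, 265.50 and 239.89 FPKM in PLBs and 3438.2, 3090.2 and 3477.2 FPKM in leaves (log2 fold change -3.75, SE 0.147, adjusted p = 5.8e-07 in edgeR), while UDP-glucose pyrophosphorylase (K00963) rose by 0.51 (SE 0.0907), or by 0.79 on log2(FPKM + 1).

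The alpha-amylase AMY2 measured 34.09, 31.60 and 31.99 FPKM in PLBs and 2.54, 3.58 and 3.70 FPKM in leaves (log2 fold change 2.84, SE 0.135, adjusted p = 1.16e-06 in edgeR), and AMY3, a plastid alpha-amylase in Arabidopsis, rose by 0.37 (SE 0.0973), or by 0.61 with library size alone. The whole alpha-amylase ortholog K01176, at 332.90, 318.07 and 292.06 FPKM in PLBs and 273.13, 276.50 and 276.34 FPKM in leaves, was not called (log2 fold change 0.03, adjusted p = 0.748), although it was with library size alone (0.28, adjusted p = 0.0117). Of its 79 unigenes, 15 were AMY2, 17 were AMY3, 1 named another alpha-amylase, 43 named pentatricopeptide repeat proteins and 3 named other proteins. The contig of another alpha-amylase stood at 16.74 to 29.22 FPKM in PLBs and 2.0 to 3.03 FPKM in leaves. The pentatricopeptide contigs summed to 81.45 to 90.34 FPKM in PLBs and 117.35 to 119.90 FPKM in leaves. The contigs of other proteins summed to 21.38 to 25.29 FPKM in PLBs and 45.09 to 48.65 FPKM in leaves. The phosphoglucan phosphatase DSP4 measured 23.81, 20.77 and 18.07 FPKM in PLBs and 44.57, 45.02 and 46.41 FPKM in leaves (log2 fold change -1.44, SE 0.108, adjusted p = 9.88e-06). Its relative LSF2 fell by 0.82 (SE 0.107), and LSF1 rose by 0.25 (SE 0.0861), or by 0.50 with library size alone, a call lost without any leaf library or PLB replicate 3. The maltose exporter MEX1 measured 26.46, 30.13 and 30.34 FPKM in PLBs and 50.63, 51.28 and 48.49 FPKM in leaves (log2 fold change -0.91, SE 0.0948, adjusted p = 5.57e-05). The dikinase PWD, which follows GWD, was not called (log2 fold change 0.01, adjusted p = 0.931), and neither were alpha-glucosidase (K01187), glucose-6-phosphate isomerase (K01810) or hexokinase (K00844), at -0.23, -0.22 and 0.07. Without PLB replicate 1 all 3 were called, at -0.45, -0.34 and 0.17, and hexokinase was also called with library size alone, at 0.32, and on log2(FPKM + 1), at 0.43. No unigene carried K01200, an ortholog of pullulanase. For PTST, ESV1 and LESV, proteins that shape granules in Arabidopsis, no result is given.

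**Figure D5:**
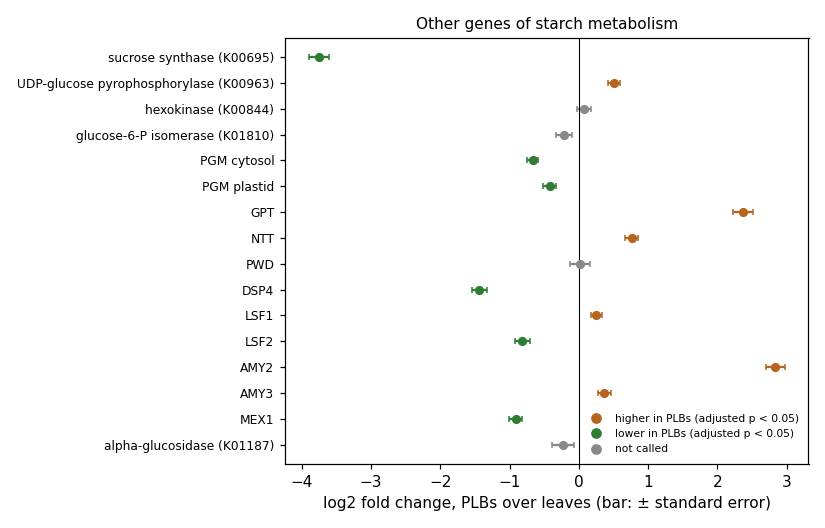
Log2 fold change of PLBs over leaves with its standard error (x axis) for 16 other genes of starch metabolism (y axis). GPT at 2.37 and AMY2 at 2.84 lay farthest to the right and sucrose synthase at -3.75 farthest to the left, and colours mark calls at an adjusted p of 0.05.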

How the data were processed

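The 6 libraries (3 of PLBs, 3 of leaves) were sequenced by the authors, whose processing notes name Bowtie2 2.2.5, RSEM 1.2.8 and DESeq2. The study states that the unigenes were assembled with Trinity and clustered with Tgicl, while its methods also describe full-length isoforms and BLAST mapping. The deposited files give expected counts (reads divided between similar unigenes), TPM and FPKM per unigene, with no further normalization. The deposited log2 ratios and p-values of the authors' own comparison were not used. No genome was used and no sequence is shown. Expected counts were summed over the unigenes of each first listed KEGG ortholog, isoform class or locus (NT nucleotide description). The class came from the first of the SwissProt, NR (protein) and NT descriptions to give an isoform. Counts were rounded and tested in edgeR 4.0.16 (TMM, filterByExpr, quasi-likelihood test) over the whole table, with Benjamini-Hochberg adjustment. Sums were called at an adjusted p under 0.05, and unigenes at 0.001 with a log2 fold change of 1. Standard errors were |log2 fold change|/√F, so they describe the test and not a separate estimate. The p-values measure only the spread between 3 libraries per tissue. The members and lists were chosen with earlier results of these data known. Named were all orthologs and classes, the 3 unigenes of highest mean FPKM per ortholog, and the 5 largest rises and falls among called unigenes with a mean FPKM of at least 1. Loci, and the sums by description, were added after the annotation was seen. Alternatives were DESeq2 1.42.0, other size factors, limma 3.58.1 on log2 FPKM or TPM with pseudocounts of 0.1 or 1, other filters, lengths of at least 500 bp, and leaving out each library. The edgeR fit was tested on simulated counts of orthologs and of unigenes, and the other tests were not.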

Additional observations from a re-analysis of the deposited data

How the results depend on the processing

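Results for AGPase, GBSS, isoamylase, beta-amylase and DPE kept their direction and their call in DESeq2, under the other size factors and filters, with limma on FPKM or TPM and with each library left out. Taking only the unigene with the most counts turned the log2 fold change of GBSS (-0.60), isoamylase (-0.65), GWD (-1.88), phosphorylase (0.47) and starch synthase (0.014). Starch synthase (-0.25) was -0.0042 with library size alone and -0.16 on log2 FPKM with either pseudocount, none called, 0.0518 over any listed ortholog and 0.040 on log2 TPM. Phosphorylase (-0.36) was -0.114 with library size alone, not called, 0.12 on log2 FPKM with either pseudocount (0.1157 and 0.1152) and 0.32 on log2 TPM. GWD (0.11) was called at 0.36 with library size alone, 0.27 on log2 FPKM (0.2728 and 0.2706) and 0.47 on log2 TPM, and branching enzyme (-0.27) was 0.0065 on log2 TPM. The number of orthologs called lower fell to 1 under library size, FPKM or TPM. Under the stricter rule for single unigenes no ortholog was called: higher 0 and lower 0, AGPase at -1.13, GBSS 0.87, DPE 0.80, isoamylase 0.65, beta-amylase 0.58, phosphorylase -0.36 and starch synthase -0.25. Called unigenes numbered 95 higher and 82 lower of 226 tested at an adjusted p under 0.05 alone. The share of all unigenes called under that rule was not computed. Among clusters, which pool related contigs, 11 were higher and 22 lower of 72 tested. Of all 36425 clusters tested, 40.3% were called.

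With 1 library left out, starch synthase ranged over -0.33 to -0.20, phosphorylase over -0.45 to -0.24, branching enzyme over -0.48 to -0.10, orthologs called lower over 1 to 4, and called unigenes over 18 to 28 higher and 25 to 38 lower. Signs also turned for values near 0, none of them called with all libraries: ISA1 (-0.036 to 0.17), PU1 (-0.20 to 0.056), PWD (-0.16 to 0.14), branching enzyme LOC110028889 (-0.33 to 0.23), alpha-amylase K01176 (-0.0069 to 0.064), the PWD ortholog K15535 (-0.13 to 0.17), CL2877.Contig12 (-0.068 to 0.13), CL486.Contig3 (-0.41 to 0.13), Unigene28423 (-0.33 to 0.11) and Unigene83859 (-0.51 to 0.072). With library size alone they turned for BAM7 (0.15), ISA2 (0.06), PHS-H (0.10), PU1 (0.20), LOC110028889 (0.21), LOC110108623 (0.16), K01187 (0.0122), K01810 (0.030), CL486.Contig3 (0.17), CL6845.Contig1 (0.20), Unigene28423 (0.25) and Unigene83859 (0.17). On log2 FPKM, with pseudocounts of 0.1 and 1, they turned for BAM7 (0.0165 and 0.0152), ISA2 (0.090 and 0.079), PHS-H (0.2514 and 0.2499), PU1 (0.20 and 0.18), CL486.Contig3 (0.08254 and 0.0826), CL6845.Contig1 (0.19 and 0.17), Unigene28423 (0.28 and 0.25) and Unigene83859 (0.088 and 0.082), and with 1 for LOC110028889 (0.14), LOC110108623 (0.17) and K01810 (0.083). CL2877.Contig12 was -0.00503 in DESeq2 and -0.00496 with its size factors. As shares of counts, unigenes of other proteins in K00975 (-0.061 percentage points) and SS2 in K00703 (-2.92) turned. The cause was not tested. No paired analysis was possible because the labels give no replicate numbers, and those used here only follow the order of the sample titles. Depth limits low contigs: 93 of 319 were too low to test.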
